A study of Homo sapiens with 4 samples.

Results

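The proteasome genes examined here were all genes on the array whose name in the scanner files was PSMA, PSMB, PSMC, PSMD, PSME, PSMF or PSMG followed by a number, 45 genes of the 30970 gene or transcript names on the array. They were read by 71 probes. A549, a human lung adenocarcinoma cell line, was treated with embelin, a plant benzoquinone, at 15 µM for 4 h or left untreated (0 µM), and all cells had been moved to medium with less serum before the treatment. Each group had 2 samples, each hybridized to 1 single-colour array. The labels name the samples of a group as replicates without saying whether they came from separate cultures, so the p-values measure the spread between these samples, which may be technical. The question addressed was whether embelin altered the RNA of the core, the cap and the interferon-inducible subunits of the proteasome.

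The proteasome is the protease that degrades proteins tagged with ubiquitin. Its core particle is a barrel of alpha rings (PSMA subunits), which gate the entry, and beta rings (PSMB subunits), of which PSMB5, PSMB6 and PSMB7 hold the catalytic sites. The cap, or regulatory particle, has a base with the PSMC ATPases, which unfold the substrate, and a lid of PSMD subunits, which includes the deubiquitinase PSMD14. In cells exposed to interferon gamma the catalytic subunits can be replaced by PSMB8, PSMB9 and PSMB10 to give the immunoproteasome, which cuts peptides for antigen presentation, and the PSME proteins are alternative activators of the core. When proteasome activity falls, the transcription factor NFE2L1 is released from the endoplasmic reticulum and raises most subunit genes together through antioxidant response elements in their promoters.

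The probe sequences that matter most for what follows are those of PSMD12, the member with the largest change. Its brightest probe and a second probe are given first, with the bases common to both in capitals, and then those of the immunoproteasome subunits PSMB8 and PSMB9, which had the next largest changes.
PSMD12, brightest probe: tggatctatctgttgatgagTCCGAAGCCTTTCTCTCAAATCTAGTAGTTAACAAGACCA
PSMD12, second probe: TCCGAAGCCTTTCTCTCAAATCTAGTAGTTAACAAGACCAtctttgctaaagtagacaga
PSMB8 probe: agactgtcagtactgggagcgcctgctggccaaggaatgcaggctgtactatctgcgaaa
PSMB9 probe: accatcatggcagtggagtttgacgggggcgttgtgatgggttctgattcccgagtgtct
The PSMD12 probes share 40 of their 60 bases, so that they read almost the same stretch of the transcript and are not independent measurements. A further PSMD12 probe, designed to another transcript record, shares no run longer than 5 bases with either. Among the 18 members with more than 1 kept probe, probes of PSMA6 and PSMC1 also overlap, by 35 and 50 bases.

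Signals were put on the log2 scale after the arrays had been scaled to 1 common 75th percentile, and only probes that the scanner software called well above background on each array of the control group, the embelin group or both were kept. Of the 45 members, 43 were kept and tested, and the probe that stood for each of them was well above background on all 4 arrays. The others were subunits restricted to particular tissues. PSMA8, the alpha subunit of testis, was above background on 0 of 4 arrays. PSMB11, the beta subunit of the thymus, was above background on 2 arrays at 1 probe and on 1 array at the other. Probes well above background made up 66.7% of all probes for control replicate 1 and 66.4% for embelin replicate 2, against 50.3% for control replicate 2 and 51.2% for embelin replicate 1, so that each group held an array with a noisier background. By the scanner's array numbers, the controls took places 4 and 1 on the slide and the embelin samples places 2 and 3. Outer against inner place therefore cannot be told apart from treatment, and a linear term for place cannot remove such a difference. The arrays with the lower shares above background were those at places 1 and 2. All 10 epithelial and A549 markers listed (among them KRT8, KRT18, AKR1B10 and NQO1) were well above background on all 4 arrays. Of 14 markers of leukocytes, endothelium and fibroblasts only CD68 was. CDH5, LYZ and DCN were among those above background on 0 arrays, while 3 markers of each of these cell types were above it on 1 to 3. ITGAM, CD3E and PDGFRA were above it on 1 control array and 2 embelin arrays, and so were kept through the embelin group alone. Their log2 fold changes were 1.35, 1.25 and 1.37 (limma adjusted p = 0.379, 0.290 and 0.310). The log2 of the summed signal of the 6 leukocyte markers was 10.14 and 10.48 in the controls and 10.99 and 10.79 with embelin. Most of it came from CD68, which alone read 9.94 and 10.34 against 10.41 and 10.66. PTPRC, the defining gene of leukocytes, was above background on 1 of 4 arrays. On the same scale the sums were 19.67 and 19.73 against 19.51 and 19.52 for the epithelial and A549 markers. Of these markers 9 of 10 had values below 0 (56.1% of all genes tested), with a median log2 fold change of -0.14. They were 6.04 and 6.76 against 5.84 and 5.97 for 4 endothelial markers, and 5.49 and 7.72 against 8.70 and 5.53 for 4 fibroblast markers. The part of such markers in the results was not tested. Less RNA per cell and fewer cells cannot be told apart in such bulk samples.

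Proteasome RNA differed little between embelin and control. After Benjamini-Hochberg adjustment over the 17649 genes tested, limma called 0 of the 43 members, against 1.25% of all genes tested called higher and 0.561% called lower. The lowest adjusted p among members was 0.254, for PSMD12. At an unadjusted limma p under 0.05, 0 members were higher and 1 was lower, PSMD12, where 8.36% of all genes were higher and 11.1% lower. The methods' t-test put 3 members past the same unadjusted threshold, PSMD9 higher and PSME2 and PSME4 lower, where 15.8% of all genes passed in either direction by that test, and called 0 after adjustment. No member differed 2-fold. The fitted log2 fold change was above 0 for 13 members and below 0 for 30 (2 and 41 with median centring of the arrays, 6 and 37 with quantile normalization). Of all genes tested, 43.9% were above 0 and 56.1% below. The median of the members was -0.06, equal to the median of -0.06 over all genes tested, and 24 of the 43 members lay below that median.

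The members were also narrower in their changes than the array as a whole. The median absolute log2 fold change was 0.090 over the 43 members and 0.296 over all genes tested. The 95% interval of the log2 fold change lay wholly within 2-fold in either direction for 42 of the 43 members (97.7%), and for 52.9% of all genes tested. The exception was PSMD12, whose interval reached -1.16. A stricter bound of 1.5-fold held the interval of only 19 members, so that for the rest a change of that size lies inside the interval. The members are bright probes with small errors. Their median standard error was 0.178, against 0.216 over all genes. In the distribution of log2 fold changes, 13 of the 43 members fell between -0.1 and 0 and 11 between 0 and 0.1.

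**Figure D1:**
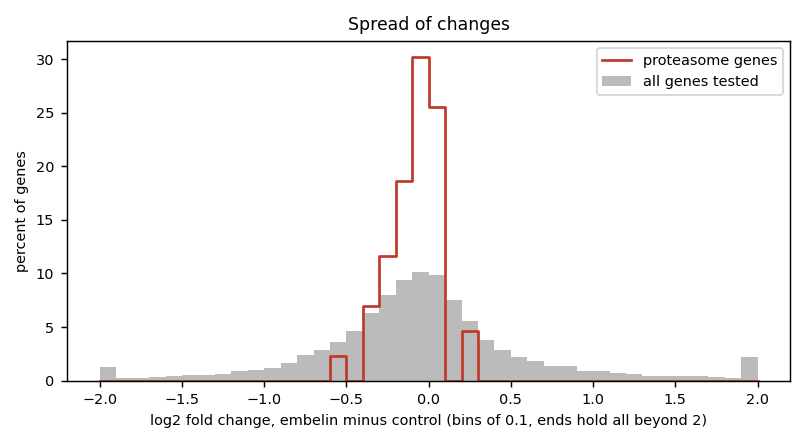
Distribution of the log2 fold change (embelin minus control) in bins of 0.1, as a percent of all 17649 genes tested (grey bars) and of the 43 proteasome genes (red line). The end bins hold all values beyond 2 in either direction. The proteasome genes lie between -0.58 and 0.24, inside the wider spread of the array.

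Both embelin arrays lay above both control arrays for 2 members (20.7% of all genes tested) and below both for 11 members (30.1% of all genes tested), and the groups overlapped for the other 30. The 2 members with embelin above were PSMD9 and PSMG4, which are assembly factors and not parts of the finished particle.

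**Figure D2:**
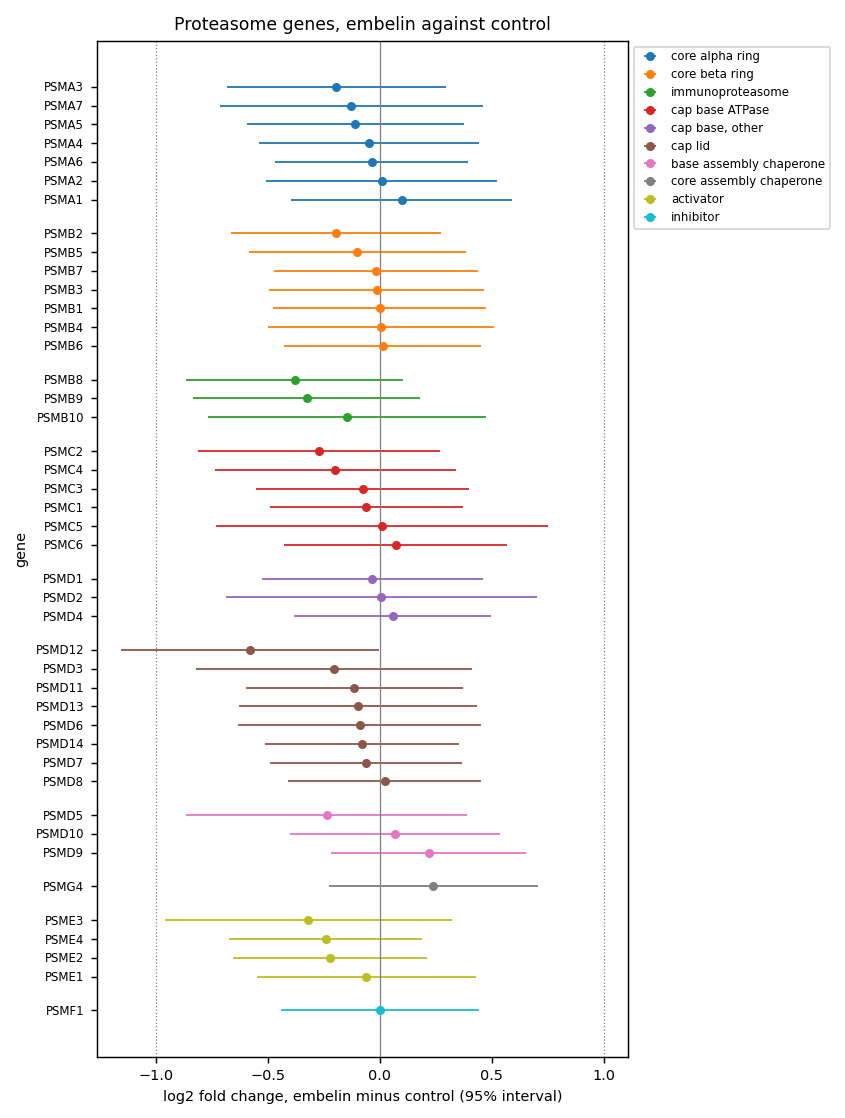
Log2 fold change (embelin minus control) of the 43 tested proteasome genes, grouped by role, with the 95% interval from limma. Dotted lines mark 2-fold in either direction. All points lie within 2-fold, and only the interval of PSMD12 leaves 0, by a small margin.

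Core subunit RNA showed no call in either direction. All 7 alpha and 7 beta subunits were measured, their log2 fold changes ran from -0.20 to 0.10 with a median of -0.03, and 0 of 14 passed the unadjusted threshold. Only PSMA3 and PSMB2 had both embelin arrays below both controls, 14.3% of the core against 30.1% of all genes tested. PSMB2 had the lowest value of the core, -0.20 (standard error, SE, 0.17). PSMA1, the alpha subunit with the highest value, had normalized log2 signals of 13.87 and 13.62 in the controls and 13.82 and 13.87 with embelin, so that the groups overlapped. PSMB3, a structural beta subunit, was printed on 11 spots of each array, and the SD between its spots was 0.039 to 0.079 on the log2 scale. Its arrays differed by more than that, with log2 signals, outlier spots left out, of 13.83 and 13.71 in the controls and 13.65 and 13.86 with embelin, and its log2 fold change was -0.01 (SE 0.18). For this probe the difference between replicate arrays was thus larger than the error of reading a spot.

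The catalytic subunits of the standard core had log2 fold changes between -0.10 and 0.01. PSMB5, which carries the chymotrypsin-like activity, had log2 signals of 15.05 and 15.28 in the controls and 15.03 and 15.09 with embelin. PSMB6, the caspase-like subunit, read 15.96 and 15.95 against 15.92 and 16.02. PSMB7, the trypsin-like subunit, read 15.28 and 15.12 against 15.15 and 15.21. In each of these the groups overlapped. A second, dimmer probe of PSMB7, whose database record has no current gene name, read 7.76 and 8.27 against 8.07 and 9.16, a log2 fold change of 0.60 that differs in direction from the -0.02 of the first.

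The immunoproteasome subunits that replace them were lower by point estimate in all 3 cases, where 56.1% of all genes tested were. Their median log2 fold change was -0.33, and 0 passed the unadjusted threshold. PSMB8 had log2 signals of 10.27 and 10.23 in the controls and 9.99 and 9.75 with embelin, a log2 fold change of -0.38 (SE 0.18, limma adjusted p = 0.345). PSMB9 read 11.65 and 11.63 against 11.17 and 11.45, a log2 fold change of -0.33 (SE 0.19, limma adjusted p = 0.418). For both, the embelin arrays lay below the controls. PSMB10 read 12.91 and 12.51 against 12.69 and 12.44 with overlapping groups and had a log2 fold change of -0.15 (SE 0.23).

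Taken within each array, the difference in log2 signal between PSMB8 and the PSMB5 it replaces shifted by -0.28 with embelin. The shift was -0.34 for PSMB9 against PSMB6 and -0.13 for PSMB10 against PSMB7. An exact two-sided permutation test over the arrays gave p = 0.667, 0.333 and 0.667 for these 3 pairs, or 0.667 for each after Benjamini-Hochberg adjustment over them. The smallest value that 2 arrays against 2 can give is 0.333, so that no pair could pass a threshold of 0.05 in this design.

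The cap had a median log2 fold change of -0.08 over 17 subunits, with a range from -0.58 to 0.07. Of the 6 PSMC ATPases 4 were below 0 and 2 above. PSMC2 was the lowest of them, with log2 signals of 13.51 and 13.83 in the controls and 13.33 and 13.48 with embelin, a log2 fold change of -0.27 (SE 0.20, limma adjusted p = 0.520) and groups that just failed to touch. PSMC6 was the highest, at 13.69 and 13.70 against 13.63 and 13.90. Its log2 fold change was 0.07, and its 4 kept probes ran from -0.06 to 0.10. PSMC1, of which the 3 kept probes ran from -0.06 to 0.02, read 15.10 and 15.04 against 15.00 and 15.03. The other base subunits, the scaffolds PSMD1 and PSMD2 and the ubiquitin receptor PSMD4, had log2 fold changes from -0.03 to 0.06. PSMD4 read 14.91 and 14.81 against 14.89 and 14.95, and its other kept probe was at -0.01.

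Of the 8 lid subunits 7 had values below 0, where 56.1% of all genes tested did. The median of the lid was -0.09, and apart from PSMD12 its subunits ran from -0.21 to 0.02. PSMD12, a structural lid subunit, had log2 signals of 12.44 and 12.58 in the controls (12.51 ± 0.10, SD, n = 2) and 11.74 and 12.12 with embelin (11.93 ± 0.27, SD, n = 2). Both embelin arrays were below both controls, and the embelin arrays differed from each other by more than the controls did. The fitted log2 fold change was -0.58 (SE 0.21), or 1.50-fold lower, with an unadjusted p of 0.0489 and an adjusted p of 0.254 from limma. The overlapping second probe gave -0.57. The further probe, designed to another transcript record, gave -0.48 from 10.28 and 9.68 in the controls and 9.43 and 9.56 with embelin. Tested as a probe of its own, the brightest probe had an unadjusted p of 0.0542. The unadjusted call was also lost when control replicate 1, control replicate 2 or embelin replicate 1 was left out, by the methods' t-test, with the slide position as a covariate, with each probe on its own, with median centring and with no filter on dim probes. PSMD14, the deubiquitinase of the lid, had a log2 fold change of -0.08 (SE 0.16).

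**Figure D3:**
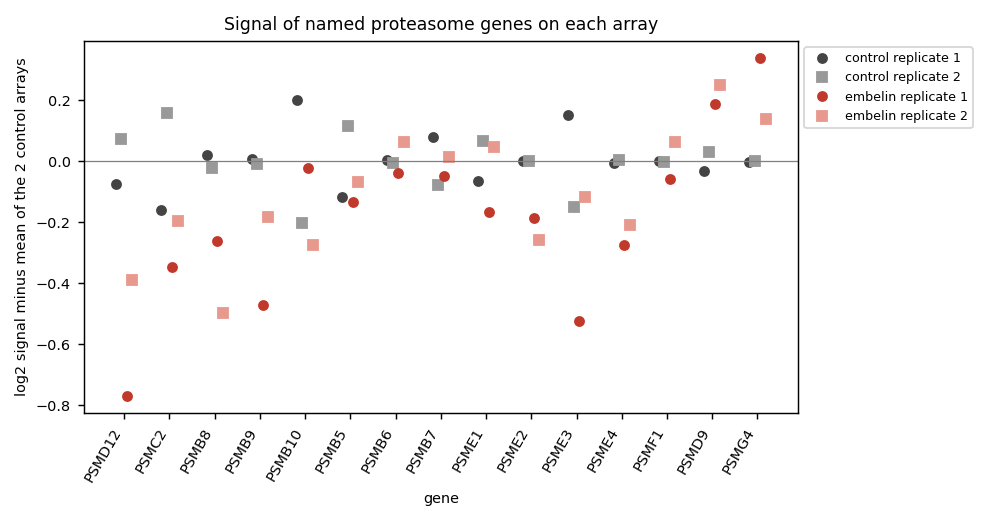
Normalized log2 signal on each of the 4 arrays for 15 proteasome genes, each minus the mean of its 2 control arrays. Grey symbols are control and red symbols are embelin arrays, circles replicate 1 and squares replicate 2. PSMD12 has its embelin arrays 0.77 and 0.39 below the control mean, while PSMB6, PSMB7 and PSMF1 scatter around 0.

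The chaperones that assemble the particle gave mixed values. PSMG4, which with PSMG3 helps to build the alpha ring, read 9.56 and 9.57 in the controls and 9.90 and 9.70 with embelin, the highest log2 fold change of any member at 0.24 (SE 0.17, limma adjusted p = 0.510). Its other kept probe gave 0.19. PSMG1, PSMG2 and PSMG3 are on the array under older names and so were not among the 45. Their log2 fold changes, found through the sequence records of their probes, were 0.02, -0.18 and 0.12. Of the chaperones of the cap base, PSMD9 read 13.65 and 13.72 against 13.87 and 13.94, a log2 fold change of 0.22 (SE 0.16, limma adjusted p = 0.518). A dim second probe of PSMD9, above background on 3 of 4 arrays, gave -0.86, so that the direction for this gene depends on the probe. PSMD10, also known as gankyrin, read 12.25 and 12.37 against 12.30 and 12.46. PSMD5 had a log2 fold change of -0.24 with overlapping groups.

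The activators had values below 0 in all 4 cases, where 56.1% of all genes tested did. Their median log2 fold change was -0.23, and 0 passed the unadjusted limma threshold. PSME1 and PSME2 form the interferon-inducible 11S ring. PSME2 read 16.18 and 16.18 in the controls and 15.99 and 15.92 with embelin, a log2 fold change of -0.22 (SE 0.16, limma adjusted p = 0.508). PSME1 read 15.46 and 15.59 against 15.36 and 15.57 with overlapping groups, and its other kept probe was at 0.02. PSME4, the large single-chain activator, read 10.62 and 10.63 against 10.35 and 10.41, a log2 fold change of -0.24 (SE 0.16, limma adjusted p = 0.473). PSME2 and PSME4 had both embelin arrays below both controls, and both were among the 15.8% of all genes past the unadjusted threshold by the methods' t-test. PSME3, the nuclear activator, read 11.07 and 10.77 against 10.40 and 10.80. Its log2 fold change was -0.32 (SE 0.24), a further probe to the same transcript record gave -0.48, and a probe to a different transcript record of the gene gave 0.13. The inhibitor PSMF1, also called PI31, read 11.41 and 11.41 against 11.35 and 11.47, a log2 fold change of 0.00 (SE 0.16).

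The promoters bear on the regulators described next. In the table of RefSeq promoters (GRCh38.p14), 40 of the 45 members had an entry, and those without were PSMA7, PSMB1, PSMB6, PSMB7 and PSMD4. The core of the antioxidant response element, searched as TGACNNNGC on both strands in the 250 bases before the start, was found in 11 of the 48 member promoters (22.9%) and in 10.9% of all 35116 promoters. The interferon-stimulated response element core was searched as GAAA and GAAA spaced by any pair of bases on either strand. It was found in 5 member promoters (10.4%), those of PSMA4, PSMB4, PSMB10, PSME2 and PSMG4, and in 3.02% of all promoters. Of the 11 members with the antioxidant response element core, PSMB9, PSMD12, PSME2 and PSME4 had embelin below both controls, and PSMD9 had embelin above. Over all genes tested, 30.1% had both embelin arrays below both controls and 20.7% above. For PSMA4, PSMB3, PSMC5, PSMD3, PSMD5 and PSME1 the groups overlapped. A relation between the motif and the changes was not tested. The stretches before the starts of PSMD12, the member with the largest change, and of PSMB9, which adjoins TAP1, are given. Capitals mark the antioxidant response element core, which in PSMB9 is on the opposite strand.
PSMD12, minus strand, chr17:67366578-67366827: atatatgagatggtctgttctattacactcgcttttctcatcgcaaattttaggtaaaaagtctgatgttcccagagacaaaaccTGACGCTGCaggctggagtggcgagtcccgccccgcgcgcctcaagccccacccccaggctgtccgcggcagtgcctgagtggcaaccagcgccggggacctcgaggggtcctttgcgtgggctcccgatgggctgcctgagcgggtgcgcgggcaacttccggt
PSMB9, plus strand, chr6:32853942-32854191: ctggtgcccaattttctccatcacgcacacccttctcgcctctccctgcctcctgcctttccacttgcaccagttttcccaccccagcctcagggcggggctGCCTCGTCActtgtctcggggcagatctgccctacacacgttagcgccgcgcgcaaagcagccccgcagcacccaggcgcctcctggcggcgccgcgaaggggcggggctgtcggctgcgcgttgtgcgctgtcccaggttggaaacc
The match begins 165 bases before the start of PSMD12 and 148 bases before that of PSMB9. A match is a description of the letters and does not show that a factor binds. The start of PSMB9 lies 488 bases from a start of TAP1, which is transcribed the other way, so the genes share the stretch between them.

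Among 42 further genes of the ubiquitin and proteasome pathway, in 5 lists, 39 were tested. Limma called 1 of them higher and 0 lower after adjustment, against 1.25% and 0.561% of all genes tested. The lists were chosen with earlier results of these data known, so shares within them are descriptions and not a fair comparison with the array. At an unadjusted p under 0.05, 2 (5.13%) were higher and 3 (7.69%) lower, shares below the 8.36% and 11.1% of all genes. The gene called was NGLY1, the cytosolic glycanase that removes sugar chains from NFE2L1 and is needed for that factor to act on proteasome genes. NGLY1 had log2 signals of 13.03 and 13.15 in the controls and 14.57 and 14.61 with embelin. Both embelin arrays stood well above both controls, with a log2 fold change of 1.50 (SE 0.16, limma adjusted p = 0.0454). A second, dimmer probe, above background on 3 of 4 arrays, differed in the same direction, with a log2 fold change of 1.79 and 6.01 and 5.06 in the controls against 6.95 and 7.70. The adjusted call sits at the threshold. NGLY1 was called in 3 of 16 other settings, and with any 1 array left out its adjusted p was between 0.111 and 0.229 while its log2 fold change stayed between 1.44 and 1.56.

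NFE2L1 itself had a log2 fold change of -0.13 at its brightest probe with overlapping groups, and of 0.28 to 0.34 at its other 3. NFE2L2, the related oxidative stress factor, was at 0.20 (SE 0.28). DDI2, the protease that cuts NFE2L1 free, had the largest fitted value of this list, 2.55, but it rested on 1 array, with 9.81 and 5.70 with embelin against 5.71 and 4.70, and was not called (limma adjusted p = 0.425). Of the 5 regulators of proteasome genes tested, 1 was called higher and 0 lower, where 1.25% and 0.561% of all genes tested were. In the same cells, 0 of the 14 core and 17 cap subunits were called higher. The highest log2 fold change among these 31 was 0.10 at the brightest probe of each gene. Dimmer kept probes read higher for PSMA1, PSMD8 and PSMB7, at up to 0.31, 0.39 and 0.60. For PSMD1 and PSMD3 the dimmer probe read lower, at -0.27 and -0.33. At a share of 1.25% over all genes, few calls would be expected among so few subunits. A link between NGLY1 and the subunits was not tested.

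Of the 10 deubiquitinases, shuttles and related receptors, 0 were called after adjustment, and 1 was higher and 1 lower at the unadjusted threshold, near the shares of 8.36% and 11.1% over all genes. ZFAND2A, a stress-inducible protein that binds the proteasome, read 9.85 and 9.97 in the controls and 10.97 and 10.85 with embelin, a log2 fold change of 1.00 (SE 0.17, limma adjusted p = 0.0791). Like NGLY1 it was called in 3 of the 16 other settings, where its adjusted p ran from 0.0268 to 0.486. ZFAND5, another zinc finger protein that binds the proteasome, read 13.97 and 14.13 against 13.30 and 13.51, a log2 fold change of -0.64 (SE 0.18, limma adjusted p = 0.176), but its 4 other kept probes lay between -0.21 and 0.10. Among the other subunits and assembly factors 6 were tested and 0 passed either threshold. The largest values were -0.37 for AKIRIN2, which brings proteasomes into the nucleus, and -0.32 for PAAF1, which binds the free cap ATPases.

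Of the 10 ubiquitin genes, activating enzymes and segregase subunits, 0 were called and 1, VCP, was lower at the unadjusted threshold. VCP, the ATPase that pulls ubiquitinated proteins out of complexes and membranes, read 16.54 and 16.64 in the controls and 15.95 and 16.04 with embelin. Its log2 fold change was -0.59 (SE 0.16, limma adjusted p = 0.170), and its other probes gave -0.54 and -0.38. It was called in 1 of the 16 other settings, eBayes with trend and robust (limma adjusted p = 0.0379). UBA6, a second activating enzyme of ubiquitin, had the largest fitted value of the list, -1.39, but its controls were 6.61 and 9.13, and its other kept probe gave 1.27. No spot on the arrays was marked as saturated.

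**Figure D4:**
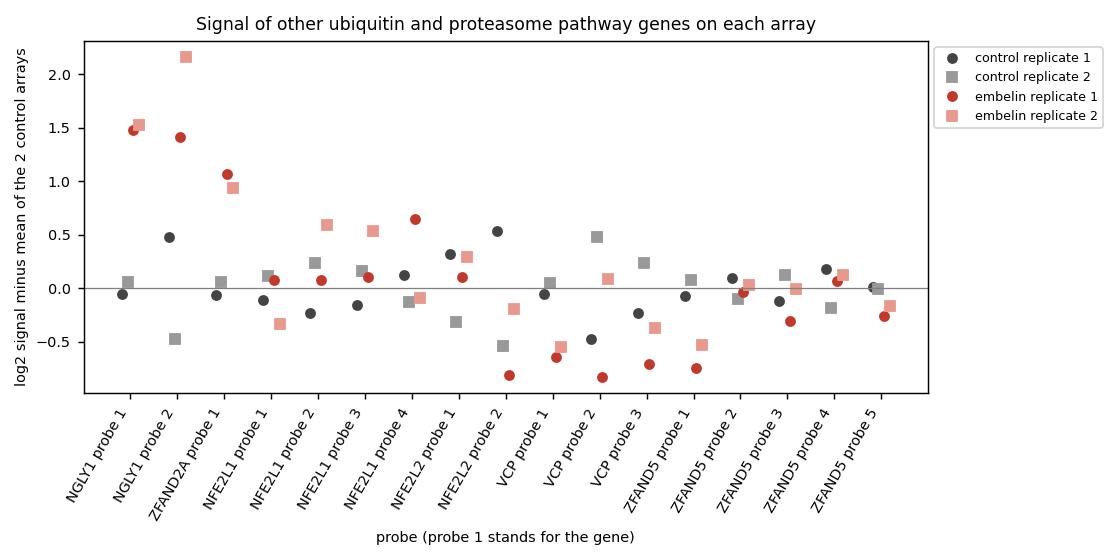
Normalized log2 signal on each of the 4 arrays for every kept probe of 6 other pathway genes, each minus the mean of its 2 control arrays, with probe 1 the one that stood for the gene. Grey symbols are control and red symbols are embelin arrays, circles replicate 1 and squares replicate 2. Both NGLY1 probes have both embelin arrays above both controls, whereas the probes of ZFAND5 differ among themselves.

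The partners of the immunoproteasome in antigen presentation were 8 of 9 tested, with a median log2 fold change of -0.23, and 0 were called after adjustment. TAP1, which carries peptides into the endoplasmic reticulum and shares its promoter with PSMB9, read 12.97 and 13.09 in the controls and 12.33 and 12.81 with embelin, a log2 fold change of -0.46 (limma adjusted p = 0.376). TAP2 had the largest fitted value, -1.54, with controls of 5.94 and 8.40 that spread more widely than the difference between groups. B2M, the light chain of the class I molecule, was at 0.03.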

How the data were processed

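A549 RNA (2 control and 2 embelin samples) was hybridized to single-colour arrays of 1 slide. The deposited intensities were the processed signals of Agilent Feature Extraction (10.7.3.1, per the file headers), background-subtracted and detrended by the authors' software and not normalized between arrays. Here each array was scaled to a common 75th percentile as the study's methods name, set to at least 1, and converted to log2. Outlier spots were left out (2 of 81 member spots on any array), spots of a probe were averaged, and the brightest kept probe stood for a gene. The deposited table of probe values served as an alternative. Groups were compared with limma 3.58.1 in R 4.3.3 (lmFit, eBayes, two-sided), adjusted over 17649 genes, and the fit was tested on simulated data.

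Values on every array are given for members past an unadjusted limma p of 0.05 and for the 5 largest rises and falls. They are also given for the catalytic and immunoproteasome subunits, activators, inhibitor, PSMG4 and members whose probes differ in sign. PSMG1, PSMG2 and PSMG3 are given by log2 fold change only. Of the other lists, genes past that p or with the 2 largest changes are named, and any further gene was chosen after its values were seen. Some genes that this rule covers are counted but not reported here by name. The members and lists were chosen with earlier results of these data known. No level of 1 probe was set against another outside the catalytic pairs. The number of arrays limits the precision.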

Additional observations from a re-analysis of the deposited data

How the results depend on the processing

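No proteasome gene was called after adjustment under any of the 16 alternatives, and the lowest adjusted p of a member over them was 0.129. The count past an unadjusted p of 0.05 was 1, and was 0 with median centring, with no filter on dim probes, with each probe on its own and with slide position as a covariate, 3 by the methods' t-test, and 0 to 1 with 1 array left out, where PSMD12 stayed only without embelin replicate 2. With the replicate number as a block (replicate block) it was 1, and 0 members were called. No label says what the numbers share and there are only 2, so they were not taken as pairs. The replicate deviations of the groups correlated at 0.17 over genes and 0.37 over members. The median log2 fold change of the members was -0.18 with median centring, which moved the median of all genes from -0.06 to -0.17, and -0.13 to -0.042 with 1 array left out. That of the core was -0.073 with quantile normalization, -0.14 with median centring and -0.078 to -0.011 with 1 array left out. That of the cap was -0.19 with median centring and -0.15 to 0.01 with 1 array left out, above 0 only without embelin replicate 1. Minus the median of all genes, that of the members was -0.0038 in the values reported, -0.0045 with median centring and -0.086 to 0.010 over the alternatives. Of the 20 named members 8 kept their direction throughout: PSMD12 (-0.77 to -0.39), PSMB8, PSMB9, PSME3, PSMC2, PSME2, PSME4 and PSMG4. Settings that change only the test cannot move a value. For a named gene, the setting with each probe on its own read only the brightest probe, so it could not show a difference between probes. PSME3, among the 8, has a kept probe at 0.13, above 0. Median centring put 2 members above 0 and 41 below, quantile normalization 6 and 37. Over all genes the adjusted calls numbered 320, 0 with no filter on dim probes, by the t-test, with the block, with position or with any array left out, 699 with normexp, 764 with the filter on all arrays, 1061 with trend and robust, 180 with quantile normalization, 159 with the deposited table, 492 with median centring and 218 with the mean over probes. The causes were not tested.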
